A study of Mus musculus with 8 samples.

Results

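The semaphorins, plexins and neuropilins form a large family of axon guidance ligands and receptors. They were followed here as 33 genes among the 15705 of the deposited table, in RNA from the lateral ganglionic eminence (LGE) of mouse embryos at E18.5. Members were taken by gene symbol: the 20 semaphorins of classes 3 to 7, the 9 plexins, both neuropilins and the 2 plexin domain-containing genes Plxdc1 and Plxdc2. All 33 passed the filter on low values, which kept genes reaching 1 in no fewer than 4 libraries. The LGE is the embryonic source of striatal projection neurons. The 4 conditional knockout (cKO) libraries came from embryos carrying Dlx1-Cre and 2 floxed alleles of Isl1, a LIM-homeodomain transcription factor gene. The 4 control libraries came from littermates with the same floxed alleles and no Cre, so the effect of Cre and that of the Isl1 deletion cannot be told apart. Cre under Dlx1 control acts in ventral forebrain cells of the Dlx1 lineage, which are not all cells of the dissected tissue. The labels describe separate dissected embryos but give neither litter nor sex.

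Semaphorins are extracellular guidance cues that share the sema domain and act mainly through plexins, large receptors whose cytoplasmic part acts on small GTPases. Class 3 semaphorins are secreted, and most bind neuropilins, which form a complex with A-type plexins. Sema3e is an exception and binds Plxnd1 directly. Classes 4, 5 and 6 span the membrane, and Sema7a is held by a lipid anchor. In the mouse striatum, Sema3e and Plxnd1 are known for shaping thalamic input to direct pathway neurons, and striatal Sema3a and Sema3f are known for keeping migrating cortical interneurons out of the striatum.

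The deposited values per gene are whole numbers that, by their own pattern, were scaled and adjusted before deposit, and they are called adjusted read values below. Sequencing depth is therefore unknown, and the upper quartiles of the 8 libraries lay between 1624 and 1635. Isl1 itself had adjusted values of 4930, 5377, 5618 and 5971 in the cKO libraries and of 3777, 3692, 4186 and 3517 in the control libraries. The libraries labelled cKO were higher (limma log2 difference 0.53, adjusted p = 0.000338). A whole-gene value does not check the deletion, since the floxed exon is unstated in the labels, so each direction below rests on the labels. None of 9 LGE and striatal markers was at 0 in any library. Dlx1, Dlx2, Dlx5 and Meis2 rose and Ppp1r1b fell, with summed RPKM of 1014 to 1034 in cKO and 873 to 916 in control libraries. Summed RPKM (the authors' reads per kilobase of gene, scaled to library size) of 12 pallial neuron markers ranged from 8.24 to 23.6 in cKO libraries and from 2.43 to 23.6 in control libraries, with cKO replicate 4 and control replicate 3 the lowest of their groups. These sums include Bhlhe22, the only pallial marker that passed, which rose in the cKO (limma log2 difference 2.61, adjusted p = 0.00151). Its mean was 4.07 RPKM in cKO and 0.773 RPKM in control libraries. Of 12 microglial markers, 10 rose in the cKO, all 3 cholinergic markers fell, and none of 5 oligodendrocyte lineage or 5 astroglial markers passed. Summed RPKM of the oligodendrocyte lineage markers was 35.455 to 38.509 in cKO and 38.511 to 43.925 in control libraries, without overlap. That of the astroglial markers was 1227 to 1487 in cKO and 1453 to 1570 in control libraries, which overlap. Most of the astroglial sum was Fabp7, which alone had means of 1272 RPKM in cKO and 1388 RPKM in control libraries. Of 4 medial interneuron markers, Npy fell and no other passed. Their summed RPKM was 88.7 to 127 in cKO and 133 to 167 in control libraries.

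Of the 33 genes, 5 fell in the cKO (Plxnd1, Sema3d, Sema6a, Sema3a and Sema5b) and 1 rose (Plxdc2), tested with limma at a Benjamini-Hochberg adjusted p under 0.05 over all 15698 tested genes. That is 18.2% of the members, beside 6.66% of all tested genes, of which 3.78% fell and 2.87% rose. The falls of Plxnd1 and Sema3d were more than 3-fold, and the other 4 changes were below 1.5-fold. The median log2 difference of the members, cKO minus control, was 0.01, the same as that of all tested genes, and their median absolute difference was 0.11, against 0.08. In 12 of the 33 genes the groups were fully separate, 6 with the cKO above and 6 with it below. Over all tested genes the groups were separate in 12.7%, with the cKO above in 6.37% and below in 6.33%. Of the 27 members that did not pass, 9 (33.3%) had an unadjusted p under 0.05, beside 12.9% of all genes that did not pass.

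**Figure D1:**
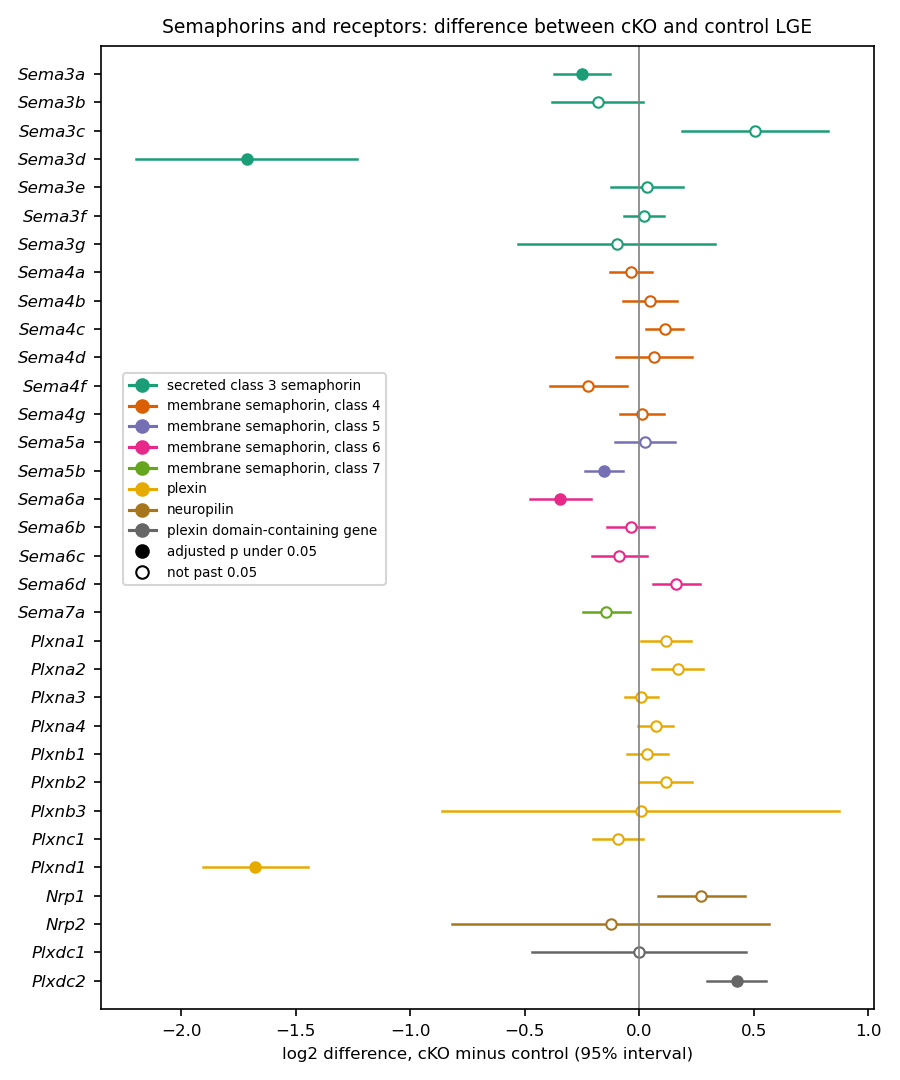
Log2 difference in adjusted read value, cKO minus control, for the 33 genes grouped by class, with 95% intervals from limma (n = 4 libraries a group). Filled points passed the test. Sema3d (-1.71) and Plxnd1 (-1.68) lie far left of the other 31 genes, which lie between -0.35 and 0.51.

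Plxnd1 (chromosome 6, 115954811 to 115995005, minus strand, GRCm38), the receptor of Sema3e, fell in the cKO. The cKO libraries held 2149, 1567, 1763 and 1642, and the control libraries 6171, 4666, 5853 and 6035. The lowest control value was more than 2-fold the highest cKO value. Means were 1780 ± 259 in cKO and 5681 ± 689 in control libraries (SD, n = 4 each), a control mean 3.19-fold that of the cKO. On the log2 scale it differed by -1.68 ± 0.10 (SE, limma adjusted p = 2.18e-06). In 19 alternatives the difference lay between -1.77 and -1.59 and passed each time. Plxnd1 took 4.04% ± 0.43 of the summed RPKM of the 9 plexins in cKO libraries and 12.4% ± 1.21 in control libraries (SD, n = 4 each). The summed RPKM of the other 8 plexins was 252 ± 12.3 in cKO and 240 ± 6.40 in control libraries.

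Plxnd1 is also a known marker of striatonigral, or direct pathway, neurons and of developing blood vessels. Of 6 striatonigral markers, Tac1, Pdyn and Chrm4 fell, Isl1 rose, and Drd1 and Ebf1 did not pass. Their summed RPKM was 152 to 170 in cKO and 196 to 208 in control libraries. These sums include the targeted gene Isl1, which alone had means of 89.3 RPKM in cKO and 62.2 RPKM in control libraries. Of 6 striatopallidal, or indirect pathway, markers, Drd2 and Adora2a rose and none fell, with summed RPKM of 197 to 203 in cKO and 179 to 187 in control libraries. None of 10 endothelial and mural markers passed, with summed RPKM of 92.2 to 109 in cKO and 89.4 to 97.5 in control libraries. In this bulk tissue, fewer cells of a type and less RNA per cell cannot be told apart, and the part of these marker groups in the fall of Plxnd1 was not tested.

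Among genes near Plxnd1, Ift122 rose by a log2 difference of 0.20. Mbd4, Tmcc1, 9530062K07Rik and Washc2 did not pass, with differences between -0.13 and -0.08. The promoter windows of Plxnd1 and Sema3d are shown because these genes fell by similar amounts, and that of Sema3e because this ligand of Plxnd1 did not pass. Each runs from 250 bases before to 50 bases after the RefSeq start (build GRCm38.p6), and capitals mark TAAT or its reverse complement ATTA, the core that LIM-homeodomain and other homeodomain proteins bind. The Plxnd1 window is chr6:115994956-115995255 on the minus strand while those of Sema3d, chr5:12382916-12383215, and Sema3e, chr5:14025026-14025325, are on the plus strand.
Plxnd1: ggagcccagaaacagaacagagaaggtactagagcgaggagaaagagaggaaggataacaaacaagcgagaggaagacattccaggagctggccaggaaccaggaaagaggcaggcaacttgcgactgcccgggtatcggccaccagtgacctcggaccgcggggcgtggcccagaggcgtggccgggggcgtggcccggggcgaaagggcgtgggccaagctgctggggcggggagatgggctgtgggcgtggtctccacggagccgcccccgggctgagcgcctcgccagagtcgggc
Sema3d: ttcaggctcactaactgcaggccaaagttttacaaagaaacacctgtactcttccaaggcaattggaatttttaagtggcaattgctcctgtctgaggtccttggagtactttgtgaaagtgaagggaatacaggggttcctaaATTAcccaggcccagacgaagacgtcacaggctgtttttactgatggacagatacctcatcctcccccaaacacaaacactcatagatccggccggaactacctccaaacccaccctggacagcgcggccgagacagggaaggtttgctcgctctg
Sema3e: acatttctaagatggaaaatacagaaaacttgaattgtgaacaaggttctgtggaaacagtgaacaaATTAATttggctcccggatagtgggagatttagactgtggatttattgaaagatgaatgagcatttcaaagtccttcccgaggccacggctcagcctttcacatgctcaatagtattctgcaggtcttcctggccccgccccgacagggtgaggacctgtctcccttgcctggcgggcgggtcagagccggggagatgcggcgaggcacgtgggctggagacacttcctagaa
No TAAT or ATTA lay in the Plxnd1 window, and 1 ATTA lay in the Sema3d window, its first base 106 bases before the start. The Sema3e window held an ATTA and an overlapping TAAT, 183 and 181 bases before the start. The 4 letters occurred on either strand in 58.0% of 32851 promoter windows of the same length. The longer form CATTAG, or CTAATG on the other strand, contains the core and was in none of these windows, and 7.4% of all windows held it. G and C made up 67.0% of the Plxnd1 window, 49.7% of the Sema3d window and 50.7% of the Sema3e window, and the median of all windows was 52.7%. A match describes letters only, and the absence of one says nothing about binding.

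The secreted class 3 semaphorins moved unequally. Sema3d and Sema3a fell (28.6% of the 7 genes, beside 6.66% of all tested genes), and the other 5 did not pass. Sema3d, a secreted ligand that binds Nrp1, had adjusted values of 85, 51, 48 and 49 in cKO libraries and of 239, 170, 133 and 230 in control libraries. All 4 cKO values were below all 4 control values, and cKO replicate 1 was the highest of its group. The means were 58.25 ± 17.9 in cKO and 193 ± 50.4 in control libraries (SD, n = 4 each), a control mean 3.31-fold that of the cKO. Its log2 difference was -1.71 ± 0.22 (SE, limma adjusted p = 0.000533). Without cKO replicate 1 the difference was -1.91, and on log2(RPKM + 1), where a low gene is compressed, it was -0.70. Sema3d passed in all 19 alternatives. At 0.368 ± 0.114 RPKM in cKO and 1.23 ± 0.335 RPKM in control libraries it was among the least abundant members.

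Sema3a, a repellent cue read by Nrp1 and A-type plexins, fell by a small amount. It held 626, 692, 622 and 675 in cKO libraries and 739, 800, 820 and 748 in control libraries, with no overlap. The log2 difference was -0.25 ± 0.06 (SE, limma adjusted p = 0.0208). Leaving out cKO replicate 3 ended the call (adjusted p = 0.0562), as did leaving out control replicate 2 (0.0546) or 3 (0.0624). So did the RPKM columns (0.0504) and leaving out both pallial-low libraries, cKO replicate 4 and control replicate 3 (0.0991). Over the 19 alternatives the log2 difference lay between -0.28 and -0.21.

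Sema3c, a secreted ligand of both neuropilins, had the highest difference among the 33 genes but did not pass. Its adjusted values were 657, 806, 713 and 640 in cKO libraries and 519, 624, 350 and 524 in control libraries. Every cKO value was above every control value, and control replicate 3 was the lowest of its group. It differed by 0.51 ± 0.15 on the log2 scale (SE, limma adjusted p = 0.066). It was 0.34 without control replicate 3 (adjusted p = 0.0697), and it passed without control replicate 2 (0.62, adjusted p = 0.0183). In the authors' deposited table Sema3c passed, with an adjusted p of 0.0351. Within each group the libraries fell in the same order for Sema3c as for the summed pallial markers. The pallial sums were 16.4, 23.6, 17.1 and 8.24 RPKM in cKO replicates 1 to 4 and 17.2, 23.6, 2.43 and 19.4 RPKM in control replicates 1 to 4. The part of pallial RNA in the Sema3c values was not tested.

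Sema3e, a ligand of Plxnd1, held 284, 251, 258 and 254 in cKO libraries and 240, 261, 252 and 270 in control libraries. The groups overlapped, and the log2 difference of 0.03 ± 0.07 had a 95% interval of -0.12 to 0.19. Per length, Plxnd1 RPKM was 6.73 ± 0.58 times Sema3e RPKM in cKO libraries and 22.1 ± 3.25 times in control libraries (SD, n = 4 each).

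Sema3f, a ligand of Nrp2 and the most abundant class 3 semaphorin per length, had 19.6 ± 0.559 RPKM in cKO and 19.4 ± 0.954 RPKM in control libraries (SD, n = 4 each). Its adjusted values were 1691, 1605, 1693 and 1634 in cKO libraries and 1705, 1561, 1624 and 1646 in control libraries, which overlap. It differed by 0.02 ± 0.04 on the log2 scale (SE), with a 95% interval of -0.07 to 0.11. Sema3f alone made up 60.1% ± 1.54 of the summed class 3 RPKM in cKO and 59.7% ± 2.39 in control libraries. The sum over all 7 genes was 32.6 ± 0.56 RPKM in cKO and 32.5 ± 1.35 RPKM in control libraries. Within that sum, Sema3c held 18.0% ± 1.77 in cKO and 12.9% ± 2.67 in control libraries. Sema3b held 103 to 109 in cKO and 113 to 130 in control libraries, without overlap, and did not pass (log2 difference -0.18 ± 0.09, limma adjusted p = 0.322). Sema3g, at under 1 RPKM in every library, had a log2 difference of -0.10 ± 0.20.

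**Figure D2:**
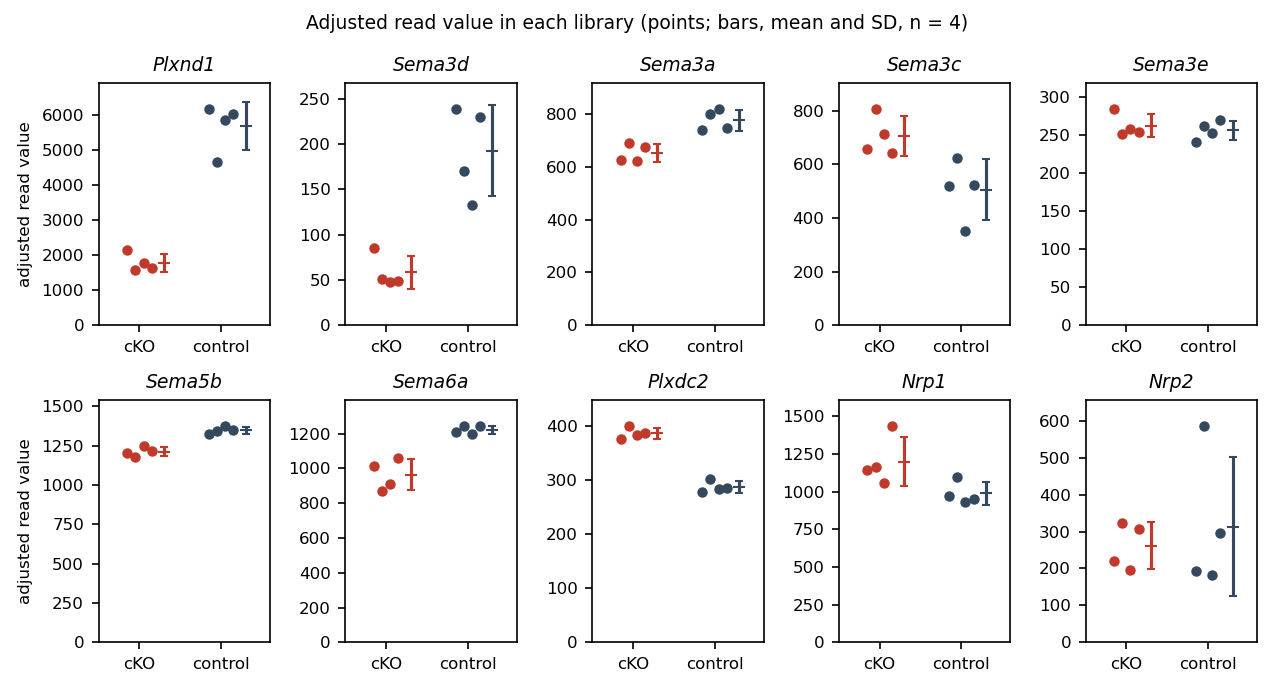
Adjusted read value of 10 genes in each of the 4 cKO and 4 control libraries, with the mean and SD beside the points. Each axis starts at 0. Groups do not overlap in Plxnd1, Sema3d, Sema3a, Sema3c, Sema5b, Sema6a and Plxdc2, and they overlap in Sema3e, Nrp1 and Nrp2.

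Sema3d, Sema3a, Sema3e and Sema3c lie in this order on the plus strand of chromosome 5, with 5.19 Mb between the starts of the first and the last (12383385 and 17574281, GRCm38, GENCODE M21). Sema3a starts 0.742 Mb after Sema3d, and Sema3e starts 0.9 Mb after Sema3a. Differences along this row were -1.71 for Sema3d, -0.25 for Sema3a, 0.03 for Sema3e and 0.51 for Sema3c. The 3 other tested genes between Sema3d and Sema3c did not pass. In order, they were Pclo (log2 difference -0.003 ± 0.07), Cacna2d1 (0.24 ± 0.12) and Hgf (-0.16 ± 0.09), all between Sema3e and Sema3c. The 3 tested genes before Sema3d did not pass either. Of the 3 tested genes after Sema3c, Gnai1, which encodes an inhibitory G protein subunit, rose by a log2 difference of 0.47 ± 0.04 (SE, limma adjusted p = 6.01e-05). Another, 4921504A21Rik, rose by 1.18 ± 0.23 (limma adjusted p = 0.01), with a mean of 0.39 RPKM over all 8 libraries. Cd36 lies between Sema3c and Gnai1 and did not pass, with a mean of 0.0736 RPKM over all 8 libraries.

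**Figure D3:**
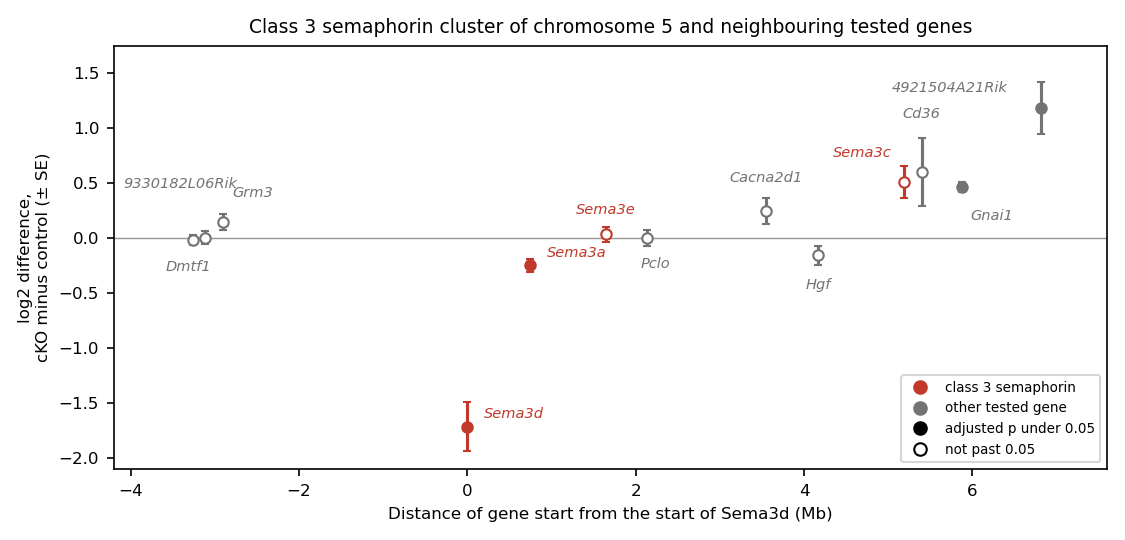
Log2 difference in adjusted read value, cKO minus control, with SE (n = 4 libraries a group), against the distance of each gene's start from that of Sema3d. The class 3 semaphorins of chromosome 5 run from -1.71 for Sema3d to 0.51 for Sema3c, with 3 other tested genes between them and 3 on either side.

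Of 13 membrane semaphorins of classes 4 to 7, Sema6a and Sema5b fell and none rose (15.4% called, beside 6.66% of all tested genes). Sema6a (chromosome 18), a ligand of Plxna2 and Plxna4, held 1016, 870, 912 and 1059 in cKO libraries and 1206, 1241, 1197 and 1242 in control libraries. The groups did not overlap, and the cKO values were the more spread. Means were 964 ± 88.1 in cKO and 1222 ± 23.4 in control libraries (SD, n = 4 each), and the log2 difference of -0.35 ± 0.06 (SE, limma adjusted p = 0.00464) passed in all 19 alternatives. Of the other class 6 genes, Sema6b and Sema6c overlapped between groups, with log2 differences of -0.04 ± 0.05 and -0.09 ± 0.05. Sema6d, a ligand of Plxna1, held 2972 to 3234 in cKO and 2528 to 2863 in control libraries, with no overlap, and did not pass (log2 difference 0.16 ± 0.05, limma adjusted p = 0.064).

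Sema5b, which carries thrombospondin repeats and is known in the mouse retina for restraining neurites through Plxna1 and Plxna3, held 1204, 1177, 1247 and 1214 in cKO libraries. The control libraries held 1322, 1341, 1373 and 1351. Both groups were tight and did not overlap, and the log2 difference was -0.15 ± 0.04 (SE, limma adjusted p = 0.0288). The call was lost in 9 of 19 alternatives, while the log2 difference stayed between -0.17 and -0.14 in all 19. The authors' deposited table gave Sema5b an adjusted p of 0.225. It was 0.0861 with the missing direction of variation (described with the processing) as a covariate, and 0.154 without both pallial-low libraries. Leaving out cKO replicate 1, 2 or 4 gave 0.054, 0.0849 and 0.0761, and leaving out control replicate 2, 3 or 4 gave 0.0639, 0.0754 and 0.116. Of the 3 nearest tested genes on either side, Pdia5 fell by 0.36 on the log2 scale (limma adjusted p = 0.0257), and Adcy5, Sec22a, Dirc2, Hspbap1 and Parp14 did not pass, with differences between -0.20 and 0.42. Sema5a, its closest relative, had a log2 difference of 0.03 ± 0.06.

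None of the 6 class 4 genes passed, beside 6.66% of all tested genes. Sema4f had the largest difference of them, -0.22 ± 0.08 (limma adjusted p = 0.133), and passed without control replicate 3 (-0.29, adjusted p = 0.0376). Sema4c, a ligand of Plxnb2, held 1896 to 2074 in cKO and 1820 to 1858 in control libraries, with no overlap, and its log2 difference of 0.11 ± 0.04 did not pass (adjusted p = 0.117). Sema4d, a ligand of Plxnb1, had a log2 difference of 0.06 ± 0.08. Sema4a and Sema4b had differences of -0.04 ± 0.04 and 0.05 ± 0.05. Sema4g held 2395, 2335, 2291 and 2533 in cKO libraries and 2406, 2469, 2236 and 2372 in control libraries, which overlap, and its log2 difference was 0.01 ± 0.04. Sema6c, the most abundant semaphorin per length, had 2672, 2275, 2418 and 2413 in cKO libraries and 2735, 2428, 2530 and 2687 in control libraries. Its level was 24.1 ± 1.66 RPKM in cKO and 25.7 ± 1.73 RPKM in control libraries (SD, n = 4 each). Sema7a, a ligand of Plxnc1 and of integrins, had a log2 difference of -0.14 ± 0.05 (limma adjusted p = 0.11) and did not pass.

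Among the 8 plexins other than Plxnd1 none passed, beside 6.66% of all tested genes. Plxna2, the most abundant of the 33 genes per length, held 17537, 15763, 15551 and 17875 in cKO libraries and 14518, 14486, 15532 and 14780 in control libraries. The groups came within 19 units of each other without overlapping. Plxna2 differed by 0.17 ± 0.05 on the log2 scale (SE, limma adjusted p = 0.0775), and it passed without cKO replicate 3 (0.20, adjusted p = 0.0469). Plxnb2, a receptor of Sema4c and Sema4d, held 9485, 8225, 8715 and 8753 in cKO libraries and 8416, 7392, 8415 and 8232 in control libraries. These overlap, with a log2 difference of 0.12 ± 0.05 (adjusted p = 0.264). Plxna1 differed by 0.12 ± 0.05, Plxna4 by 0.07 ± 0.04, Plxnb1 by 0.04 ± 0.04, Plxna3 by 0.01 ± 0.03 and Plxnc1 by -0.09 ± 0.05, all on the log2 scale. The 95% interval of Plxna3, the narrowest, ran from -0.06 to 0.08. Plxnb3 was the least abundant member, with values of 7 to 26 in cKO and 9 to 19 in control libraries, and the 95% interval of its log2 difference, -0.86 to 0.87, is wide.

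Nrp1, the receptor subunit for Sema3a and a co-receptor for vascular endothelial growth factor, held 1142, 1161, 1058 and 1434 in cKO libraries and 970, 1100, 934 and 949 in control libraries. The groups overlapped, and cKO replicate 4 was the highest of all. Nrp1 differed by 0.27 ± 0.09 on the log2 scale (SE, limma adjusted p = 0.0962), by 0.18 without cKO replicate 4 and by 0.16 without both pallial-low libraries. Endothelial and mural marker sums were also highest in cKO replicate 4, at 109 RPKM against 92.2 to 93.5 RPKM in the other cKO libraries, and their part in Nrp1 was not tested. Nrp2, the receptor subunit for Sema3f, had 220, 324, 196 and 306 in cKO libraries and 192, 585, 182 and 295 in control libraries. Its high value was that of control replicate 2, the control library with the largest pallial sum. The control libraries fell in the same order for Nrp2 as for the pallial sums, and the cKO libraries did not. There, replicate 4 had the lowest pallial sum (8.24 RPKM) and an Nrp2 value of 306. Replicates 1 and 3, with sums of 16.4 and 17.1 RPKM, held 220 and 196. The Nrp2 log2 difference of -0.12 ± 0.32 had a 95% interval of -0.82 to 0.57 and ranged from -0.41 to 0.23 over the alternatives. The part of pallial RNA in the Nrp2 values was not tested.

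Plxdc2 (chromosome 2, 16356304 to 16755839, plus strand, GRCm38) was the 1 member that rose. Plxdc1 and Plxdc2 encode membrane proteins with a plexin-like domain, known as receptors of pigment epithelium-derived factor and not as semaphorin receptors. Plxdc2 held 376, 400, 383 and 387 in cKO libraries and 278, 302, 284 and 286 in control libraries. The groups were tight and well apart, with means of 386.5 ± 10.1 in cKO and 287.5 ± 10.2 in control libraries (SD, n = 4 each). The log2 difference was 0.43 ± 0.06 (SE, limma adjusted p = 0.000865), a 1.34-fold ratio of means. All 19 alternatives passed, and on log2(RPKM + 1), which compresses low genes, the difference was 0.28. Mouse microglia are known to express Plxdc2, and the summed RPKM of the 12 microglial markers was 84.0 to 106 in cKO and 54.2 to 61.4 in control libraries, with 10 risen and none at 0 in any library. These sums were 104, 97.4, 106 and 84.0 RPKM in cKO replicates 1 to 4 and 57.6, 55.6, 54.2 and 61.4 RPKM in control replicates 1 to 4. In neither group did the libraries fall in the same order for Plxdc2 as for these sums. The part of microglial RNA in the rise of Plxdc2 was not tested. Plxdc1 was low, with 20 to 38 in cKO and 27 to 33 in control libraries, and a 95% interval of the log2 difference of -0.47 to 0.47.

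**Figure D4:**
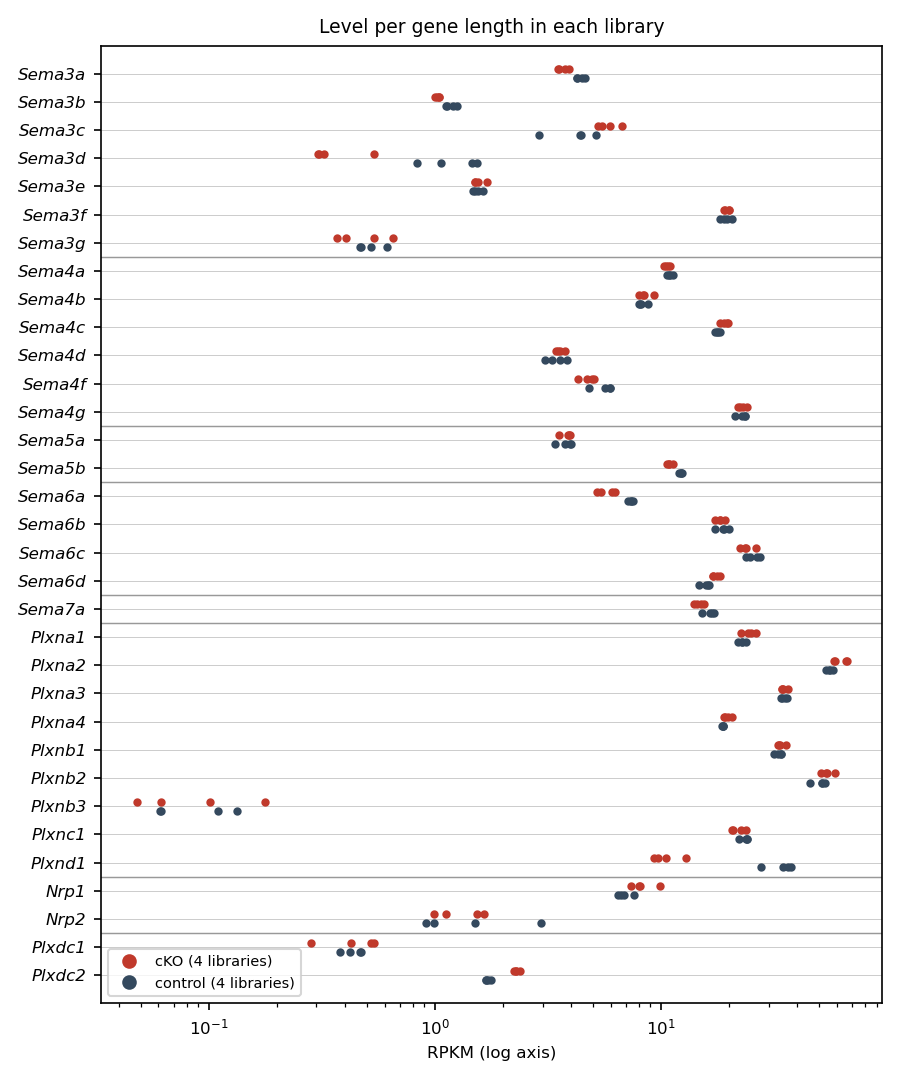
RPKM of the 33 genes in each of the 4 cKO and 4 control libraries on a log axis, with lines between classes. Plexins other than Plxnb3 sit at 9 or more RPKM in every library, while class 3 semaphorins other than Sema3f sit below 7 RPKM. Plxnd1 and Sema3d are the 2 genes whose groups stand farthest apart.

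The 5 members at 30 RPKM or more in the control LGE were all plexins. In order, they were Plxna2 at 55.7 ± 1.64, Plxnb2 at 50.5 ± 3.45, Plxna3 at 35.0 ± 0.939, Plxnd1 at 34.1 ± 4.46 and Plxnb1 at 33.2 ± 1.14 RPKM (SD, n = 4). The ranges of the last 3 overlapped, and those of the first 2 overlapped with no other member's. In the cKO, Plxnd1 had 10.6 ± 1.57 RPKM, below the range of every plexin except Plxnb3. Summed over the class, the 13 membrane semaphorins had 165 ± 4.42 RPKM in cKO and 169 ± 4.35 RPKM in control libraries. Both neuropilins together had 9.67 ± 1.31 RPKM in cKO and 8.51 ± 1.40 RPKM in control libraries.

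Genes that act with or below these receptors were read from a list of 55 genes, of which 53 were in the table. It holds the collapsin response mediators, small GTPases and their regulators, MICAL and LIM kinases, and co-receptors such as L1cam, Met and Kdr. None of the 53 passed with limma, beside 6.66% of all tested genes, and none passed in the authors' deposited table. An unadjusted p under 0.05 was found for 8 of them (15.1%), beside 18.7% of all tested genes. Their median log2 difference was 0.03, against 0.01 over all tested genes, and they ranged from -0.31 to 0.30. The smallest p among them was that of Dpysl4, a collapsin response mediator, with 2332 to 2577 in cKO and 2631 to 2880 in control libraries and a log2 difference of -0.17 ± 0.05 (adjusted p = 0.0556). The cofilin phosphatase gene Ssh1 differed by 0.27 ± 0.08 (adjusted p = 0.0688), the LIM kinase gene Limk2 by -0.10 ± 0.03 (0.072) and Arhgef12, a guanine nucleotide exchange factor that binds B-type plexins, by 0.14 ± 0.04 (0.0817).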

How the data were processed

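STAR, featureCounts, edgeR and the build mm10 are named in the submitters' processing notes as what the authors worked with, while versions and strand settings were not given in the sources used here. Whole-number columns deposited by the authors were treated as a score and not as counts, because their upper quartiles were nearly equal in all libraries and 1 direction of variation was missing, with a singular value of 0.000241 against 0.0433 for the next (5711 genes). That adjustment is inferred from the values, and removing a direction of variation can make SDs, SEs and intervals too small. The RPKM columns were deposited by the authors, as were the log2 fold changes and p-values of their comparison, whose sign is cKO over control by the values.

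Values were taken as log2(value + 1), which understates changes of low genes. Genes at 1 or more in at least 4 libraries were kept (15698, with 7 left out), and all 8 libraries were fitted with limma 3.58.1 (moderated test, mean trend) in R 4.3.3. The p-values were adjusted by Benjamini-Hochberg over all genes, with a threshold of 0.05, and intervals are at 95%. The fit was tested on simulated data. P-values measure only the spread between these libraries. Promoter sequences are from RefSeq (GRCm38.p6). All 33 members were found in GENCODE M21 (GRCm38). By symbol, 15346 of the 15698 tested genes were found there, and neighbours and overlaps were read among these. No member overlaps another tested gene found there or shares all its values with another gene. Annotated genes outside that set do overlap some members, 4 of them for Sema3a and 4 for Plxna2. Figures used matplotlib 3.10.9.

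Members and lists were chosen with earlier results of these data known. Values per library are given for members that passed, for Plxnd1, Nrp1 and Nrp2, and for the 2 most abundant genes of each of 4 roles (secreted semaphorins, membrane semaphorins, plexins, and neuropilins with Plxdc genes), while Sema3e was added after its values were seen. Alternatives were 2 other scalings, 2 pseudocounts, 2 filters, the missing direction as a covariate, no mean trend, the authors' comparison, a replicate block, each library left out, and the 2 libraries lowest in pallial markers left out.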

Additional observations from a re-analysis of the deposited data

Results flagged for a closer look

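Among 66 sets of 4 libraries (33 genes in 2 groups), 2 held a library far from the other 3, where chance flags about 1 in 20. Sema3d had a value of 85 in cKO replicate 1, the other cKO libraries lying at 48 to 51, and was still below the lowest control value of 133. Sema5a, which did not pass, had 930 in cKO replicate 2, with its other cKO libraries at 1019 to 1037.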

How the results depend on the processing

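Plxnd1, Sema3d, Sema6a and Plxdc2 kept direction and call in all 19 alternatives. Members called numbered 6, and 4 to 8 in the alternatives, with 4 when the 2 libraries lowest in pallial markers were left out. Over all genes, 1045 were called, 610 without those 2 libraries and 659 to 959 with 1 library left out, the lowest without control replicate 4. With the missing direction as a covariate 749 were called. The pathway list had none called, 1 with median-of-ratios scaling or on RPKM (Dpysl4), and 0 to 3 with 1 library left out. The labels number the replicates in both groups, but same-numbered libraries deviated together with correlations of only 0.23, -0.03, -0.11 and -0.53, and none matched best with its own number. The numbers were therefore not taken as pairs. The best matches of cKO replicates 1 to 4 were control replicates 4, 1, 2 and 3, with correlations of 0.51, 0.16, 0.40 and 0.24. Whether any of these share a litter is not given, and litter was not modelled. With a replicate block, 8 members (adding Sema3c and Nrp1), 2 pathway genes and 1199 genes overall passed. The unknown depth limits Plxnb3, Plxdc1 and Sema3g, the 3 members with a mean value under 50.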
